A study of Mus musculus with 130 samples.

Results

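Tcstv1, Tcstv3, Zfp352, Tmem92 and Sp110, 5 genes known as markers of the 2-cell mouse embryo, were described in mouse embryonic stem cells by RNA-seq. They were taken by name from a list of 2-cell-stage genes, with no threshold on their values, and are 5 of the 52550 genes in the deposited tables. All 5 had an entry in every library. The labels give 10 RNA libraries, 1 for each line or treatment, and without replicates no difference between conditions could be tested. Values describe single libraries, and intervals give counting error alone.

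In mouse embryos the first large wave of transcription from the embryo's own genome occurs at the 2-cell stage, and it includes several recently duplicated gene families. In cultured embryonic stem cells the same genes are mostly silent, and a small and changing fraction of cells switches many of them on together. G9a (gene Ehmt2) and its partner GLP (Ehmt1) place mono- and dimethylation on histone H3 lysine 9, a mark of silent chromatin. The enzymes Dnmt3a and Dnmt3b set new DNA methylation, and Dnmt1 copies it at replication.

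All cells were grown on gelatin in serum with leukemia inhibitory factor. 7 libraries carried the C57BL/6xCBA background. One of these was untreated wild type (WT TT2). Another came from clone G7, which lacks G9a and carries a G9a transgene with the substitutions Y1120V and Y1207F (G9a CM, for catalytic mutant). Clone 248-6 is labelled as lacking both G9a and GLP (G9a/GLP DKO). Each mutant line is thus 1 clone. The remaining TT2 libraries were wild-type cells given DMSO (the inhibitor control) or UNC0638, an inhibitor of G9a and GLP, and collected on day 2, 4 or 14. The titles give the dose as 250 nM and the treatment protocol as 250 µM, and whether day 14 cells were treated throughout is not stated. 3 libraries had the 129S4/SvJae background: wild type (WT J1), a line without Dnmt3a and Dnmt3b (Dnmt3a/3b DKO), and one without these and Dnmt1 (Dnmt1/3a/3b TKO).

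Total counts ran from 11436808 in G9a/GLP DKO to 25609600 in WT TT2, and the floor of 3 counts lay between 0.124 and 0.237 CPM, the count relative to library size with TMM factors over all 10 libraries. The library labelled G9a/GLP DKO had less Ehmt1, at 7.99 CPM against 40.1 CPM in WT TT2, but no less Ehmt2, at 18.0 against 15.2 CPM. The tables sum reads over a whole gene, so a deletion that leaves the transcript is not seen in them. Dnmt3a and Dnmt3b were lower in both Dnmt mutants, at 2.65 to 4.71 CPM against 17.1 and 26.5 CPM in WT J1, and Dnmt1 was lower in the TKO, at 6.28 against 45.9 CPM. All 12 embryonic stem cell markers had at least 1 CPM in every library. The inhibitor libraries stood apart from the untreated ones: between the inhibitor control and WT TT2, both wild-type TT2, 24.1% of genes were higher and 23.7% lower. Levels are therefore set against the control of their own set unless stated.

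Tcstv1 and Tcstv3 are short genes of the Tcstv cluster on chromosome 13, a family of near-identical copies named for variable transcripts of the 2-cell stage. On GRCm38, Tcstv1 (ENSMUSG00000096284.2) lies at chr13:119893387-119894785 and Tcstv3 (ENSMUSG00000095821.2) at chr13:120316862-120318261. Zfp352 (ENSMUSG00000070902.5), a zinc finger gene, lies at chr4:90218820-90225687. Tmem92 (ENSMUSG00000075610.9), which encodes a transmembrane protein, lies at chr11:94777217-94782703. Sp110 (ENSMUSG00000070034.13), of the speckled nuclear body protein family and best known from macrophages and interferon responses, lies at chr1:85570735-85610850. All 5 are annotated as protein-coding. RSEM, the authors' counting tool, can share a read among matching genes, and it gave a posterior standard deviation of 0 reads for Tcstv1, Tcstv3, Zfp352 and Tmem92 in every library. Sp110 had a value above 0 in 1 library, 0.71 reads at day 14. The sources used here do not say whether reads were counted by strand.

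RefSeq promoter windows of GRCm38.p6 were matched for Zfp352, with 1 window, and for Sp110, with 2. The 250 bases before the annotated start of Zfp352, chr4:90218570-90218819 on the plus strand, and before a start of Sp110 that lies inside its annotated span, chr1:85603892-85604141 on the minus strand, are shown 5′ to 3′ because the windows share long runs although the genes lie on different chromosomes. Capitals mark the longest shared run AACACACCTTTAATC, the second run TTCTGCTGGAG, and ATATAAGG, the shared run of 8 bases nearest to the start.
Zfp352: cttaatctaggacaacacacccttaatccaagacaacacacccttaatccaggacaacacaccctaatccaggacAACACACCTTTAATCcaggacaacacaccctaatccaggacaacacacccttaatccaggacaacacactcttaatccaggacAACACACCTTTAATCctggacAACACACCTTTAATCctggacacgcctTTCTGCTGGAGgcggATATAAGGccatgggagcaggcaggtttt
Sp110: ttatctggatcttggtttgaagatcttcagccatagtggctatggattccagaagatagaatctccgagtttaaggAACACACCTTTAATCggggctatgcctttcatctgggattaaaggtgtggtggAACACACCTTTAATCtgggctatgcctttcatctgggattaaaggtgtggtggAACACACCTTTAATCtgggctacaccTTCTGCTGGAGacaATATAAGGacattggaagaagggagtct
The run of 15 bases occurred 3 times in each window, always on the strand of the gene, beginning 175, 92 and 71 bases before the start of Zfp352 and 174, 121 and 68 bases before that of Sp110. TTCTGCTGGAG followed at 44 and 42 bases and ATATAAGG at 29 and 28 bases, so the last copy of the run and the 2 shorter runs stood in the same order and within 3 bases of the same distance in both. The middle copies lay 92 and 121 bases before the starts. These letters were picked after comparing the windows, so their presence here is what chose them.

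Among 32851 RefSeq windows of 300 bases (27025 genes, both strands searched), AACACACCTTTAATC was found in 23 windows, or 0.07%, TTCTGCTGGAG in 0.149% and ATATAAGG in 0.776%. All 3 together were found in 20 windows of 19 genes. The second Sp110 window, whose 250 bases lie at chr1:85598811-85599060, held none of the 3. The Zfp352 window held 2 CpG and that first Sp110 window 3, against a median of 7 over all windows. A match describes letters only.

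Tcstv1 was read 94 times in G9a/GLP DKO, 87 times at day 14 of UNC0638, 19 times in G9a CM and 9 times at day 4. It had 3 counts at day 2 and in Dnmt1/3a/3b TKO, 2 in Dnmt3a/3b DKO, 1 in WT TT2, and 0 in the inhibitor control and WT J1. The gene was thus above the floor of 3 counts in 4 libraries, all with G9a mutated, deleted by label or inhibited. In deposited TPM, which allow for gene length, its level was 12.00 in G9a/GLP DKO, 11.76 at day 14, 1.68 in G9a CM and 1.06 at day 4.

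Tcstv3 had 107 counts at day 14, 66 in G9a/GLP DKO, 17 at day 4 and 11 at day 2. Its other counts were 5 in each Dnmt mutant, 3 in WT TT2, 2 in G9a CM, 1 in WT J1 and 0 in the inhibitor control. G9a CM, where Tcstv1 ranked next after day 14, thus held no more Tcstv3 than wild type did. The level of Tcstv3 was 22.64 TPM at day 14 and 10.27 TPM in G9a/GLP DKO. TPM divide by the gene length RSEM used, which was 662.83 bases at day 14 and 761.33 bases in G9a/GLP DKO. In CPM, which ignore length, the levels were 6.63 and 5.22.

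Zfp352 was counted 110 times at day 14, 79 times in G9a/GLP DKO, 20 times at day 4, 16 times in G9a CM, 15 times at day 2 and 14 times in Dnmt3a/3b DKO. It had 2 counts in WT TT2, 1 each in WT J1 and Dnmt1/3a/3b TKO, and 0 in the inhibitor control. The counts fell into 3 levels: day 14 and G9a/GLP DKO, then the other G9a libraries with Dnmt3a/3b DKO, then the rest. In TPM, Zfp352 reached 4.53 at day 14 and 3.65 in G9a/GLP DKO and was at 0.41 to 0.71 in the middle level.

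Tmem92 had 132 counts at day 14, 49 in G9a/GLP DKO, 33 at day 2, 26 at day 4 and 13 in G9a CM. Its remaining counts were 4 in Dnmt1/3a/3b TKO, 3 in the inhibitor control, 2 in WT TT2, 1 in Dnmt3a/3b DKO and 0 in WT J1. All 3 inhibitor time points lay above G9a CM, as they did for Tcstv3 and Sp110. Its level was 7.96 TPM at day 14 and 2.87 TPM in G9a/GLP DKO.

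Sp110 had the fewest counts of the 5 at its peak. It was read 30 times at day 14, 20 times in G9a/GLP DKO, 11 times at day 2, 10 times at day 4, and 7 times in both G9a CM and Dnmt1/3a/3b TKO. WT J1 had 5 counts, Dnmt3a/3b DKO 3, WT TT2 1 and the inhibitor control 0. Its TPM were 2.38 at day 14 and 1.51 in G9a/GLP DKO, and RSEM's gene length for it varied from 827.15 to 2583 bases among libraries, which moves TPM more than CPM.

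**Figure D1:**
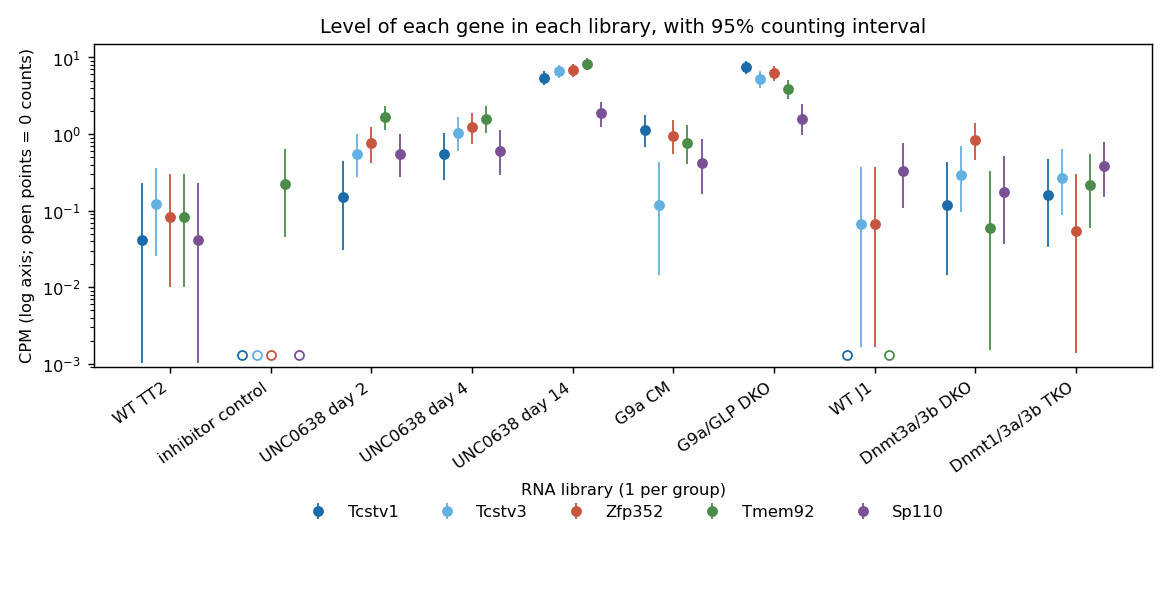
CPM of the 5 genes (colours) in the 10 RNA libraries on a log axis. Points are single libraries and bars the exact 95% Poisson interval of the count, with open points at the bottom for 0 counts; day 14 and G9a/GLP DKO stand above the rest, with Sp110 lowest in each, at 1.86 and 1.58 CPM.

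Day 14 and G9a/GLP DKO were the highest 2 libraries for all 5 genes. When libraries were ordered by CPM and each was compared with the next, the intervals showed few clear steps. Tcstv1 was higher in G9a/GLP DKO than at day 14 (ratio 1.38, interval 1.02 to 1.869), and at day 14 than in G9a CM (ratio 4.779, interval 2.885 to 8.317). For Tcstv3 the only step with an interval off 1 was from G9a/GLP DKO to day 4 (ratio 5.035, interval 2.92 to 9.155). Zfp352 had that step (ratio 5.122, interval 3.105 to 8.836) and one from day 2 to WT TT2 (ratio 9.16, interval 2.13 to 82.55). Tmem92 had 3, from day 14 to G9a/GLP DKO, from there to day 2 (ratio 2.335, interval 1.472 to 3.748), and from day 4 to G9a CM (ratio 2.057, interval 1.019 to 4.359). For Sp110 the only one was from G9a/GLP DKO to day 4 (ratio 2.594, interval 1.159 to 6.205). All other neighbours in these orders had intervals that include 1.

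The first comparison asked how the genes stood in the library labelled G9a/GLP DKO against WT TT2. Calls of higher or lower needed 3 things: a difference of 1 or more in log2(CPM + 1), a level of 1 CPM or more in one of the libraries compared, and an exact 95% interval of the count ratio that left out 1. All 5 genes were called higher, where 9.12% of the 14072 genes past the minimum were higher and 7.99% lower. Scaled by total count in place of TMM, 1756 genes were higher and 753 lower, against 1283 and 1125, and all 5 were still called. None of them had 1 CPM in WT TT2, so each passed the minimum through the mutant library alone and could be called only in that direction. With the interval alone and no minimum, 5 of 5 were also above 1, against 22.2% of all genes with counts. The 5 genes together had 308 counts against 9.

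Tcstv1 was 180.6-fold higher (interval 31.63 to 7206; log2 difference 3.02). Zfp352 was 75.87-fold higher (interval 20.32 to 637.4; log2 difference 2.74). Those folds rest on 1 and 2 counts in WT TT2, and the interval shows how loosely they are set. Tmem92 was 47.06-fold higher (interval 12.35 to 399.5), Tcstv3 42.26-fold (interval 13.84 to 210.1) and Sp110 38.42-fold (interval 6.144 to 1592). Sp110 had the smallest log2 difference of the 5, at 1.31, because its level in the mutant was only 1.58 CPM. With WT J1 as the control its log2 difference was 0.96, and it was no longer called. The folds of the 5 genes have overlapping intervals and cannot be ranked. In bulk RNA, more cells with a transcript and more transcript per cell cannot be told apart.

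G9a CM against WT TT2 gave lower values. Tcstv1 was the 1 gene of the 5 called higher, 27.37-fold (interval 4.35 to 1137; log2 difference 1.03), where 4.97% of genes were called higher and 5.78% lower (674 and 784 genes, or 806 and 616 by total count). Tcstv1 was also the 1 gene of the 5 past the minimum, through G9a CM only, so the rule could call no other. Without the minimum and the size threshold, 4 of 5 intervals lay above 1, against 17.5% of all genes. The other 3 were Zfp352 with a ratio of 11.52 (interval 2.709 to 103.3), Sp110 with 10.08 (interval 1.295 to 454.4) and Tmem92 with 9.362 (interval 2.12 to 85.46). Tcstv3 had 2 counts against 3, both at or under the floor. Reads of copies this alike may be shared, although RSEM gave both Tcstv1 and Tcstv3 a posterior standard deviation of 0 reads in every library. With the counts of Tcstv1 and Tcstv3 summed, the ratio was 7.562 (interval 2.551 to 30.3) and the log2 difference of 0.95 was not called.

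Set against each other, G9a/GLP DKO was higher than G9a CM for 4 of 5 genes, where 6.66% of genes were called higher and 3.01% lower. Tcstv3, with 2 counts in G9a CM, had a ratio of 44.01 (interval 11.71 to 371). Tcstv1 had a ratio of 6.598 (interval 3.999 to 11.44), Zfp352 of 6.584 (interval 3.814 to 12.08) and Tmem92 of 5.026 (interval 2.685 to 10.1). Sp110 had an interval above 1 (ratio 3.81, 1.548 to 10.66) but a log2 difference of 0.87. The interval of Tcstv3 begins at 11.71 and that of Tcstv1 ends at 11.44, so these intervals do not overlap. Chromosome 1, which carries Sp110, had a median log2 difference from WT TT2 of -0.63 in G9a/GLP DKO and -0.60 in G9a CM over its genes at 10 CPM or more. With the chromosome's median subtracted, the log2 difference of Sp110 from WT TT2 was 1.94 in G9a/GLP DKO, where it was 1.31, and 1.04 in G9a CM, where it was 0.44. The medians come from genes at 10 CPM or more, and Sp110 was at 1.58 CPM in G9a/GLP DKO and 0.415 CPM in G9a CM. At such levels the 1 added to CPM shrinks differences, so subtracting these medians can overstate the shift for Sp110. Sp110 stayed below the minimum of 1 CPM in G9a CM and was not called there.

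**Figure D2:**
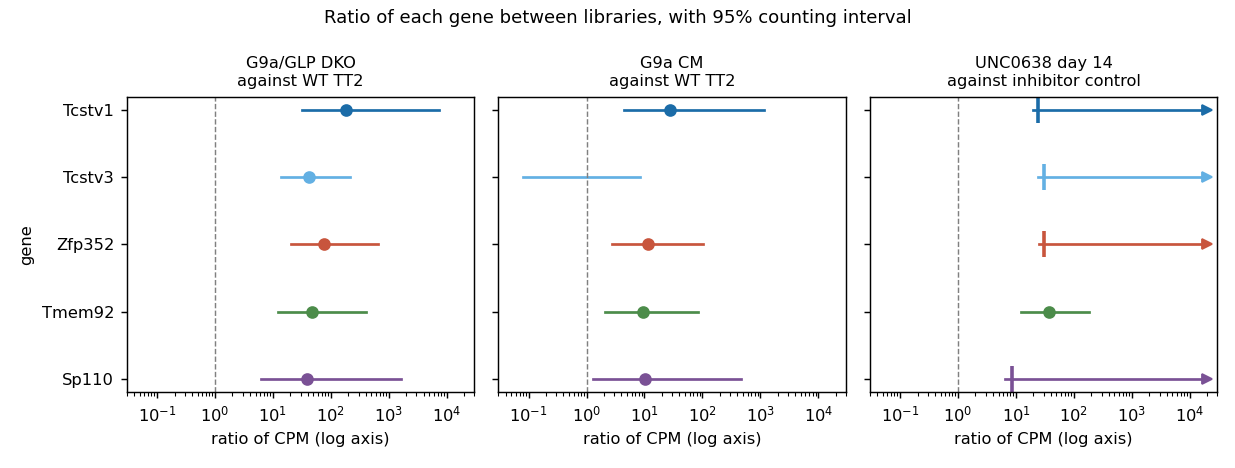
Ratios of CPM (log axis) for the 5 genes in 3 comparisons, as points with exact 95% counting intervals. Where the control had 0 counts a vertical tick marks the fold over the floor of 3 counts and an arrow the open upper end. The interval begins below that tick. Tcstv3 in G9a CM has no point because both counts were at or under the floor.

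UNC0638 was given to wild-type TT2 cells, which asks whether the genes respond when G9a and GLP are present and their activity is blocked. In the inhibitor control, 4 of the 5 genes had 0 counts and Tmem92 had 3, so most folds are lower bounds from the floor of 3 counts. On day 2, Tmem92 alone was called higher, with a ratio of 7.527 (interval 2.361 to 38.36), where 2.98% of genes were higher and 1.93% lower (396 and 256 genes, or 710 and 144 by total count). Of the 5, Tmem92 alone passed the minimum, through the treated library only, so the rule could call no other. By the interval alone 4 of 5 were higher, against 17.3% of genes: Tmem92, Zfp352 at least 3.421-fold, and Tcstv3 and Sp110 each at least 2.509-fold. Tcstv1 had 3 counts on day 2, no more than the floor.

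On day 4, Tmem92 had a ratio of 7.192 (interval 2.204 to 37.12), Zfp352 was at least 5.532-fold higher and Tcstv3 at least 4.702-fold. These 3 of 5 were called, where 2.07% of genes were higher and 0.625% lower. Only these 3 passed the minimum, each through the treated library, so the rule could call no other. Sp110, at least 2.766-fold higher, and Tcstv1, at least 2.489-fold, stayed under the minimum and the size threshold. All 5 intervals lay above 1, as for 14.9% of genes. These day 4 calls lay close to the threshold. Scaling by total count gave Tcstv3 a log2 difference of 0.96, and in deposited TPM those of Zfp352 and Tmem92 were 0.77 and 0.90. In the same TPM, Tcstv1 had a log2 difference of 1.04 and passed the threshold.

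By day 14 all 5 genes were called higher, where 2.65% of the 13187 genes past the minimum were higher and 0.622% lower. Tmem92 was 37.06-fold higher (interval 12.41 to 182). Zfp352 was at least 30.88-fold higher, Tcstv3 at least 30.04-fold, Tcstv1 at least 24.43-fold and Sp110 at least 8.423-fold. As in the knockout, each gene passed the minimum through the treated library only. The summed counts of the 5 were 3 in the control, 73 on day 2, 82 on day 4 and 466 on day 14.

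The time points share their control, so the steps between them were read directly. From day 2 to day 4 all 5 intervals included 1, with ratios from 0.9555 for Tmem92 (interval 0.5488 to 1.647) to 3.638 for Tcstv1 (interval 0.908 to 20.89). From day 4 to day 14 all 5 lay above 1. Tcstv1 had a ratio of 9.812 (interval 4.938 to 22.18), Tcstv3 of 6.389 (interval 3.809 to 11.37), Zfp352 of 5.583 (interval 3.446 to 9.495), Tmem92 of 5.153 (interval 3.365 to 8.179) and Sp110 of 3.045 (interval 1.449 to 6.983). Most of the increase in counts therefore came after day 4. Tmem92 made up 45.2% of the reads of the 5 genes on day 2 (33 of 73, exact 95% interval 33.5 to 57.3) and 28.3% on day 14 (132 of 466, interval 24.3 to 32.7). Tcstv1 made up 4.11% on day 2 (interval 0.856 to 11.5) and 18.7% on day 14 (interval 15.2 to 22.5).

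**Figure D3:**
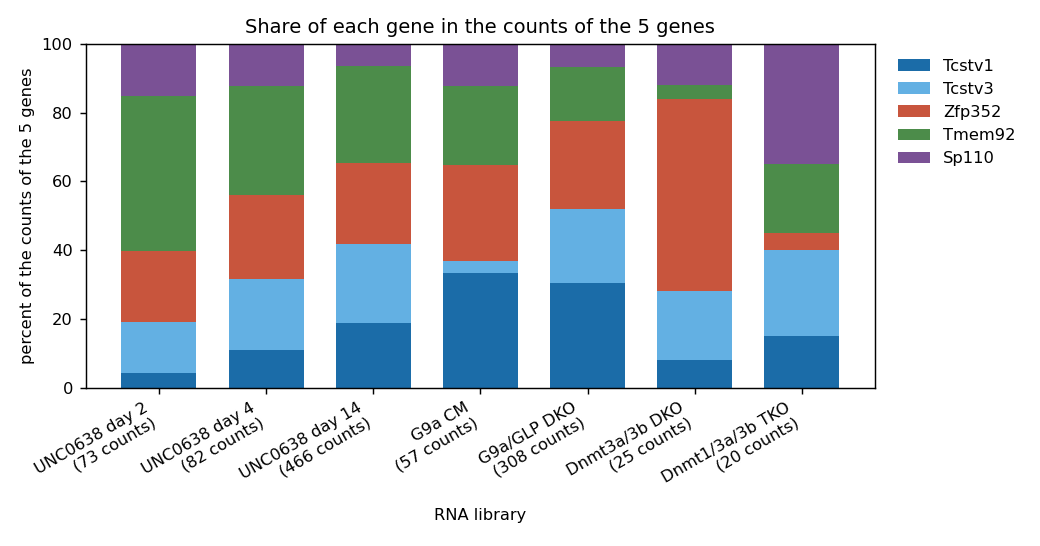
Share of each gene (colours) in the summed counts of the 5 genes, in percent, for the 7 mutant or treated libraries with the summed count under each bar. Tmem92 fills 45.2% on day 2, Zfp352 56.0% in Dnmt3a/3b DKO and Tcstv3 3.51% in G9a CM; shares from 20 or 25 counts have wide intervals.

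Day 14 of UNC0638 and the library labelled G9a/GLP DKO were then compared gene by gene. The inhibitor and untreated libraries differ widely, as given above, so the set and the treatment cannot be told apart in these ratios. Tmem92 was higher at day 14 (ratio 2.109, interval 1.508 to 2.99) and Tcstv1 was lower (ratio 0.7244, interval 0.5349 to 0.9802). Intervals included 1 for Tcstv3 (ratio 1.269, 0.9251 to 1.752), Zfp352 (ratio 1.09, 0.8089 to 1.474) and Sp110 (ratio 1.174, 0.6451 to 2.181). Zscan4c and Zscan4d, which with other Zscan4 genes mark the same cell state in embryonic stem cells, had larger ratios. These were 3.0 (interval 2.677 to 3.369) and 3.211 (interval 2.923 to 3.533). No ratio was taken for the other Zscan4 genes or for the rest of the 2-cell-stage list. Among them, Zscan4a was at 74.4 CPM at day 14 and 37.6 CPM in G9a/GLP DKO, and Zscan4f at 53.2 and 12.5 CPM. The intervals of Tcstv1, Tcstv3, Zfp352 and Sp110 ended below where those of Zscan4c and Zscan4d begin.

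**Figure D4:**
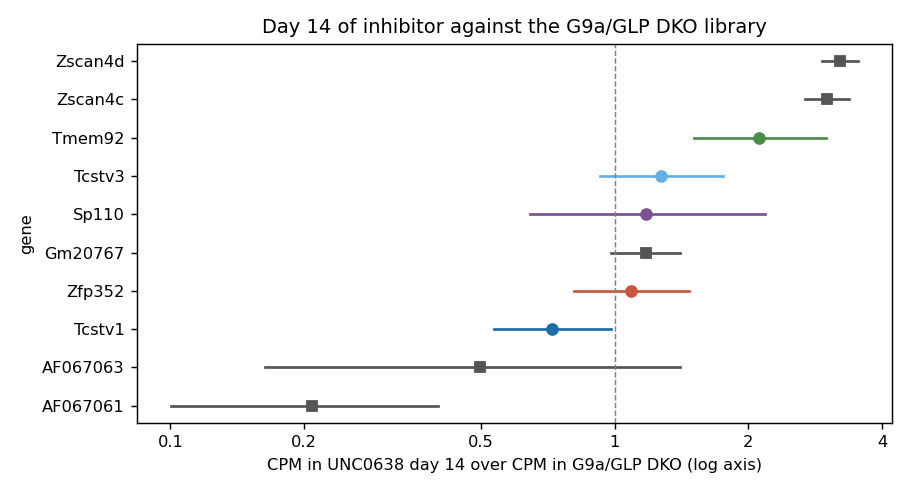
Ratio of CPM at day 14 of UNC0638 to CPM in G9a/GLP DKO (log axis) with exact 95% counting intervals, for the 5 genes (coloured circles) and 5 other 2-cell-stage or Tcstv cluster genes (grey squares). Zscan4d and Zscan4c lie highest at 3.211 and 3.0, Tmem92 follows at 2.109, and AF067061 is lowest at 0.2087.

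In the Dnmt mutants all 5 genes were below 1 CPM, with Zfp352 in Dnmt3a/3b DKO the highest at 0.83 CPM. No gene of the 5 was called in Dnmt3a/3b DKO against WT J1, where 9.46% of genes were higher and 9.79% lower, or in Dnmt1/3a/3b TKO against WT J1, where 11.1% were higher and 10.5% lower. By total count 1741 genes were higher and 992 lower in the DKO, against 1292 and 1337, and 2036 and 1071 in the TKO, against 1542 and 1458. The rule could therefore call none, and a difference of 1 on this scale was not detectable for genes this low. By the interval alone, Zfp352 was above 1 in Dnmt3a/3b DKO, with 14 counts against 1 (ratio 12.56, interval 1.911 to 531.2), where 22.4% of genes were. In the TKO 0 of 5 intervals lay above 1, against 22.0% of genes. Zfp352 had 1 count in the TKO, and between the Dnmt mutants its ratio was 0.06522 (interval 0.001542 to 0.4287), an interval below 1 as for 16.8% of genes. Again no gene was called there, where 1.75% were higher and 1.37% lower. Zfp352 made up 56.0% of the reads of the 5 genes in Dnmt3a/3b DKO (14 of 25, interval 34.9 to 75.6) and 5.0% in the TKO (1 of 20, interval 0.127 to 24.9). Each of these values rests on 1 library of at most 14 Zfp352 reads. Chromosome 11, which carries Tmem92, had a median log2 difference of 0.60 in the TKO against WT J1, and Tmem92 had 4 counts against 0 there with an interval that included 1.

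Between wild-type libraries no difference in these genes was detectable at this depth. In WT J1 against WT TT2 no gene of the 5 was called, where 11.0% of genes were higher and 12.8% lower (1501 and 1759 genes, or 1829 and 1421 with DESeq2 size factors), and 4 of 5 were at or under the floor in both. Sp110 had 5 counts against 1 (ratio 8.016, interval 0.8969 to 379.1). The inhibitor control against WT TT2 also gave 0 calls, with all 5 genes at or under the floor in both.

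Tcstv1 and Tcstv3 were set beside the other listed genes of their cluster, AF067063 at chr13:119827961-119830217, Gm20767 at chr13:120140246-120155335 and AF067061 at chr13:120263095-120264517. Gm20767 was the most read, with 312 counts at day 14, 208 in G9a/GLP DKO, 53 at day 4, 29 at day 2 and 27 in G9a CM. It had 0 to 4 counts elsewhere. It was called higher in G9a/GLP DKO (ratio 133.2, interval 44.94 to 651), in G9a CM (ratio 12.96, interval 3.989 to 66.77) and at all 3 time points, where it was at least 6.614-, 14.66- and 87.6-fold higher. Its interval from day 2 to day 4 lay above 1 (ratio 2.216, interval 1.384 to 3.615), where those of the 5 genes included 1.

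AF067061 followed another order. It had 45 counts in G9a/GLP DKO, 15 in the TKO, 12 in Dnmt3a/3b DKO and at day 14, 10 in G9a CM, and 0 or 1 elsewhere. Its ratio between day 14 and G9a/GLP DKO was 0.2087 (interval 0.1005 to 0.4012), against 1.174 for Gm20767 (interval 0.982 to 1.406). In the Dnmt mutants it had intervals above 1 against WT J1, with ratios of 10.77 (interval 1.593 to 460.3) and 12.29 (interval 1.891 to 517.4), where those of Tcstv3 included 1. AF067061 was 48.0% of the cluster's reads in Dnmt3a/3b DKO (12 of 25, interval 27.8 to 68.7) and 55.6% in the TKO (15 of 27, interval 35.3 to 74.5). It was 10.6% in G9a/GLP DKO (interval 7.85 to 13.9) and 2.29% at day 14 (interval 1.19 to 3.96). AF067063 had at most 11 counts, in G9a/GLP DKO. Which copies were read thus varied among libraries, and how far sharing of reads among near-identical copies enters was not tested.

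Within the pair, Tcstv1 made up 90.5% of the reads of Tcstv1 and Tcstv3 in G9a CM (19 of 21, interval 69.6 to 98.8), 58.8% in G9a/GLP DKO (94 of 160, interval 50.7 to 66.5) and 44.8% at day 14 (87 of 194, interval 37.7 to 52.1). On days 4 and 2 it was 34.6% (9 of 26, interval 17.2 to 55.7) and 21.4% (3 of 14, interval 4.66 to 50.8). The interval in G9a CM overlapped none of these other 4.

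**Figure D5:**
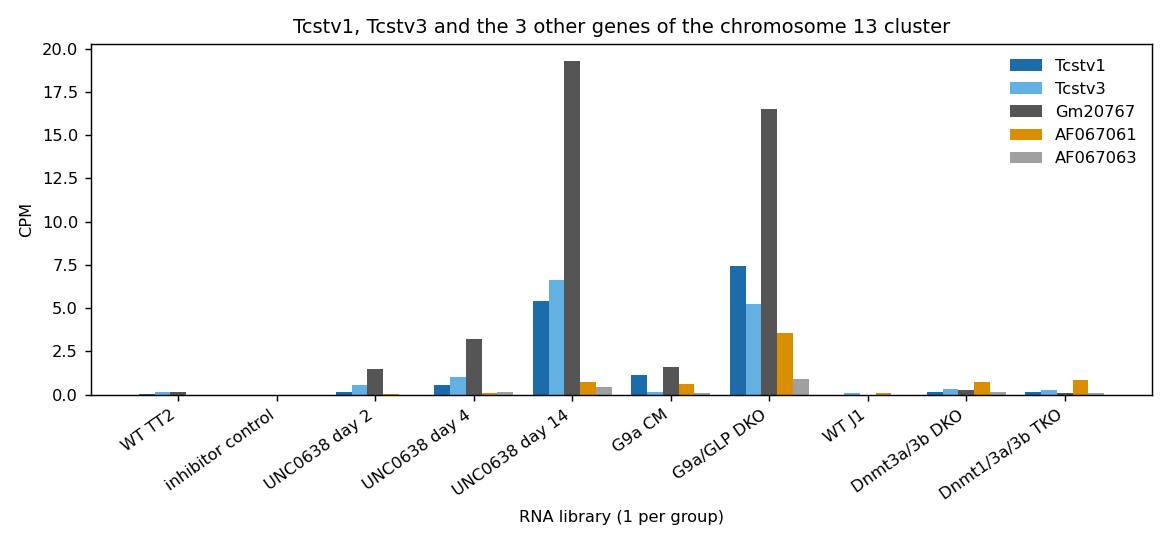
CPM of Tcstv1, Tcstv3 and 3 other genes of the cluster (colours) in each RNA library, 1 library per bar and no error shown. Gm20767 is the tallest bar at day 14 and in G9a/GLP DKO, at 19.3 and 16.5 CPM, and AF067061 is the tallest in both Dnmt mutants, at 0.711 and 0.812 CPM.

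The other 2-cell-stage genes were taken from a list of 40, of which 37 were in the files. In G9a/GLP DKO 23 of the 23 past the minimum were higher and 0 lower, against 9.12% and 7.99% of all genes past it. The median log2 difference of all 37 was 1.59, against -0.01 over the 14072 genes past the minimum. Listed genes at 0 in both libraries enter the list's medians as 0, and 33 had counts here. At day 14, 24 of 26 were higher, against 2.65% of all genes. The median was 1.80 over the 37 listed genes and -0.06 over all 13187. Fewer were higher in G9a CM (11 of 14), on day 4 (14 of 16) and on day 2 (13 of 16), against 4.97%, 2.07% and 2.98% of all genes. In the Dnmt mutants none of the 5 genes passed the minimum, so calls cannot set them against the list. Of the listed genes past it, 9 of 12 were higher in the DKO and 12 of 12 in the TKO. The shares over all genes were 9.46% and 11.1%. The medians over all 37 were 0.16 and 0.22 there, with only 26 and 24 of them having counts, so the genes at 0 pull these medians down. Zscan4d, for example, had 60 counts in Dnmt3a/3b DKO and 174 in the TKO against 1 in WT J1. Many listed genes are also near 0 in wild type and pass the minimum only where they are high. The median level of the 37 listed genes was 2.53 CPM in G9a/GLP DKO, 3.84 CPM at day 14 and 0.162 CPM in the TKO. Calcoco2, an autophagy receptor, was the most read of the list, at 893 CPM in the TKO and 415 CPM in G9a/GLP DKO.

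Relatives of Sp110 were hardly read. Of 9 listed genes of the speckled protein family 6 were in the files, and at most 1 of them reached the minimum of 1 CPM in a comparison, so the rule could call almost none. It called 0. By the interval alone 1 of the 4 with counts was higher in each of G9a/GLP DKO, G9a CM and the TKO against their wild types. Over all genes with counts the shares were 22.2%, 17.5% and 22.0%. Their summed level ran from 0.3303 to 1.583 CPM. Among 16 interferon-stimulated genes, 1 was higher and 3 lower of 9 past the minimum in G9a/GLP DKO, against 9.12% and 7.99% of all genes. G9a CM went the other way, with 3 higher and 1 lower of 9, against 4.97% and 5.78%. At day 14, 0 were higher and 1 lower of 7, against 2.65% and 0.622%. Bst2, which tethers virus particles at the cell surface, was at 6.89 CPM in G9a/GLP DKO and 29.5 CPM in WT TT2. Zbp1 was at 21.6 CPM in G9a CM and 4.78 CPM in WT TT2. Of 20 listed regulators of the 2-cell-like state, which include the pioneer factors Dppa2 and Dppa4 and the corepressor Trim28, Dppa2 was higher in G9a/GLP DKO, Ehmt1, a gene named in that label, was lower, and 0 were called at day 14. Dppa2 was at 120 CPM in G9a/GLP DKO, 119 CPM in G9a CM and 53.5 CPM in WT TT2, and at 77.0 and 58.7 CPM at day 14 and in the inhibitor control.

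Markers of other cell types were summed per library. The 8 fibroblast markers had 2.55 to 10.5 CPM, with Dcn at 0 to 0.65 CPM, and 5.54 and 8.92 CPM in G9a/GLP DKO and at day 14. The 8 trophoblast markers had 9.91 to 135 CPM, with Tfap2c the highest of them in each library and Cdx2 at 0 to 0.147 CPM. Gata3, from that list, was at 7.44 CPM in G9a/GLP DKO and 4.83 CPM at day 14 against 0.907 and 1.32 CPM in their controls. Tfap2c was lower in G9a/GLP DKO, at 26.3 against 37.9 CPM, and at 107 against 94.1 CPM at day 14. Ascl2 was at 7.28 against 2.6 CPM in G9a/GLP DKO and lower at day 14, at 8.18 against 9.41 CPM. The 8 primitive endoderm markers had 14.7 to 51.5 CPM and the 6 immune markers 6.33 to 28.1 CPM, with Ptprc, which marks all leukocytes, at 0 to 0.0661 CPM. Within the immune list, Cd3e was at 7.04 CPM in G9a/GLP DKO against 0.288 CPM in WT TT2 and at 4.83 CPM on day 14 against 0.662 CPM in the inhibitor control, and it was already at 5.07 CPM on day 4. Cd68 went the other way, at 2.53 against 4.7 CPM and at 2.48 against 4.56 CPM. From the endoderm list, Gata4 was at 5.33 CPM on day 14 against 1.32 CPM, and Sox7 at 2.91 against 5.52 CPM. The part of these genes' cells in the result was not tested.

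The genes most like each member were the 3 with the highest Pearson correlation of log2(CPM + 1) over the 10 libraries, among 11773 genes that reach 5 CPM in a library. For Tcstv1 these were Gm21818 (r = 0.98), B020031M17Rik and Gm12794, for Tcstv3 Usp17lc (r = 0.99), Gm4971 and AA792892, and for Zfp352 Gm20767 (r = 0.98), Gm4971 and Gm13078. For Tmem92 they were Usp17la (r = 0.99), Gm13078 and Usp17lb, and for Sp110 Gm13119 (r = 0.97), Gm4971 and Usp17la. The Usp17l genes encode deubiquitinases, and they belong with B020031M17Rik to the 2-cell-stage list. All points share their library and its scaling, and the highest 2 libraries set much of r. Without day 14 and G9a/GLP DKO (8 libraries), the values ranged from 0.735 for Tcstv1 with B020031M17Rik to 0.98 for Tmem92 with Usp17la. Between members, r over 10 libraries ranged from 0.877 for Tcstv1 with Tmem92 to 0.961 for Tcstv3 with Zfp352. Without those 2 libraries the lowest was 0.303, for Tcstv1 with Tcstv3, which is the pair that parted in G9a CM.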

How the data were processed

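Gene expression was analysed in 10 Smart-seq2 RNA libraries, and the other 120 samples were not analysed here. The submitters' processing notes name STAR 2.5.3a, RSEM and the build GRCm38, and no source used here names the annotation release. The deposited expected counts per gene are RSEM estimates, and the deposited TPM are scaled by RSEM for effective length and library total, per the file headers. The deposited gene length, posterior standard deviation and TPM bounds are treated as score values of the authors' RSEM run. Smart-seq2 amplifies cDNA by PCR without molecular identifiers, so reads are not independent molecules and every interval or floor covers counting error alone.

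Expected counts were rounded and scaled to CPM with TMM factors over all 10 libraries (edgeR 4.0.16, R 4.3.3; Python 3.11.15, scipy 1.17.1). Ratios of 2 libraries carry exact 95% conditional binomial (Clopper-Pearson) intervals. Folds against a library with 0 counts use 3 counts there as a floor and are written with at least. They leave out counting error of the other library and are not the lower end of the interval. No ratio is given where both libraries had 3 counts or fewer. With 1 library per group no p-value was computed. Code for the calls and intervals was tested on simulated data. Symbols were matched for 99.7% of gene IDs, leaving 147 without one, and positions are those of the RefSeq table for GRCm38. Named genes were the 5 members in every library, up to 4 of the most expressed genes of each list, listed Tcstv cluster genes at 1 CPM or more, 3 genes of like pattern per member and the nearest neighbours at 1 CPM or more. AF067063, some examples from the lists, the markers with values and the genes that share a promoter run were named after their values were seen. The members, lists and rules were chosen with earlier results of these data known. Alternatives were DESeq2 1.42.0 size factors, total-count scaling, deposited TPM, RSEM posterior mean counts, a pseudocount of 0.5 CPM, no minimum, a minimum of 10 CPM, Tcstv1 and Tcstv3 summed, and other control libraries. The interval alone, chromosome medians and WT J1 as control for G9a/GLP DKO were chosen after seeing the data.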

Additional observations from a re-analysis of the deposited data

How the results depend on the processing

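No paired analysis was possible because each RNA group has 1 library, and for the same reason no replicate could be left out. No difference of a member reversed its sign past the threshold under an alternative: of 477 recomputed member differences 448 stayed on their side of it, 25 fell below it and 4 rose above it. A minimum of 10 CPM left 0 members called in each of the 6 comparisons with calls, since no member reaches 10 CPM. With the interval alone, the number higher was 4 in G9a CM, 4 on day 2, 5 on day 4 and 1 (Zfp352) in Dnmt3a/3b DKO, and 1 (Zfp352) was lower in the TKO against Dnmt3a/3b DKO. Deposited TPM gave 2 on day 2, adding Tcstv3. The other counts of members were within 1.5 times of those reported. Over all genes, deposited TPM gave 1507 higher and 680 lower in G9a/GLP DKO, 854 and 474 in G9a CM, 1874 and 666 in Dnmt3a/3b DKO, 2079 and 733 in the TKO (274 and 132 against Dnmt3a/3b DKO, where TMM gave 236 and 185), 659 and 155 on day 2, 3754 and 2048 in the inhibitor control against WT TT2 (3309 and 3245 with TMM), and 956 and 2289 in WT J1 against WT TT2. A minimum of 10 CPM left 12 of the 2-cell-stage list higher in G9a/GLP DKO, 1 in G9a CM and in Dnmt3a/3b DKO, 5 in the TKO, 0 on day 2, 4 on day 4 and 14 on day 14. It also lowered most counts over all genes by more than 1.5 times, for example to 530 higher in G9a/GLP DKO and 101 on day 14, and on day 2 turned the split to 125 higher and 187 lower. A pseudocount of 0.5 CPM raised the number lower from 82 to 175 on day 4 and from 82 to 143 on day 14, and the number higher from 396 to 615 on day 2. The inhibitor control in place of WT TT2 left the number of members called higher in G9a/GLP DKO and G9a CM as it was. Depth limits all wild-type values: 1 count is worth 0.0412 to 0.0736 CPM in the wild-type TT2 libraries, so folds against them are set by 0 to 3 reads.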

Other observations

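The nearest annotated genes that reach 1 CPM in a library were listed for each member. BC147527, which ends 8.02 kb before Tcstv3 and is itself on the 2-cell-stage list, had 40 counts at day 14, 33 in G9a/GLP DKO, 12 at day 4, 4 in Dnmt1/3a/3b TKO, 3 in G9a CM and at day 2, 2 in Dnmt3a/3b DKO, and 0 in the 3 wild-type control libraries. Gm21761, 17.2 kb after Tcstv1, had 36 counts in G9a/GLP DKO and 24 at day 14, but also 33 and 25 in Dnmt1/3a/3b TKO and Dnmt3a/3b DKO, where Tcstv1 had 3 and 2. A530040E14Rik, 457 kb from Sp110 on chromosome 1, had 27 counts at day 14, 23 in G9a/GLP DKO and 0 in the 3 wild-type control libraries. A630001G21Rik, on the other side of Sp110, was at 0.0661 to 1.03 CPM, the highest in G9a/GLP DKO, with 0.618 CPM in WT TT2. Gm11543, 45.0 kb after Tmem92, had 18 counts at day 14 and at most 5 elsewhere. Xylt2, 99.7 kb before Tmem92, was at 6.59 CPM in WT TT2, 90.6 CPM in the inhibitor control and 92.1 CPM at day 14, a difference between the sets of libraries and not within the inhibitor set. Zfp352 had no such gene within 908 kb; Cdkn2b at that distance had 105 counts in G9a/GLP DKO and 28 in WT TT2.

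The run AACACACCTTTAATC lay in windows of 22 genes, of which 14 were in the files. Of the other 12, Gm4340, Gm21293, Gm12790 and Pemt had more than 2 counts in a library. Gm4340 had 54 counts at day 14, 16 in G9a/GLP DKO, 5 in G9a CM, 4 at day 4 and 0 in the 3 wild-type control libraries. Gm21293 had 28 counts at day 14 and at most 4 elsewhere. Gm12790 had 28 counts in G9a/GLP DKO, 13 in Dnmt1/3a/3b TKO and at most 4 elsewhere. Pemt, an enzyme of phosphatidylcholine synthesis, was read 100 to 342 times in every library. Intervals above 1 were then counted without the 2 members and with no minimum. In G9a/GLP DKO 3 of the 5 holders with counts had one (60.0%, against 25.5% of all genes with a window). They include Pemt, at 17.3 CPM against 14.1 CPM in WT TT2. At day 14 it was 2 of 6 (33.3%, against 12.5%). In G9a CM 1 of 3 lay above 1 and 1 below, where 21.4% of all genes lay above. Against WT J1 it was 2 of 4 in Dnmt1/3a/3b TKO (28.2% of all genes) and 1 of 3 in Dnmt3a/3b DKO (28.9%). Holders above 1 were thus also seen in the Dnmt mutants, but counts this small cannot be told from the shares over all genes. So few genes describe only themselves. Of the 23 windows with the run, 20 also held TTCTGCTGGAG and ATATAAGG. How alike the windows are beyond these 3 runs was not examined.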
